A study of Mus musculus with 2 samples.

Results

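The genes of S phase and of the G2 and M phases were read in leukocytes sorted from MC38 tumours, which grow from a mouse colon carcinoma line. They are 40 genes, 18 for DNA replication (Mcm2, Mcm3, Mcm4, Mcm5, Mcm6, Mcm7, Pcna, Rrm1, Rrm2, Tyms, Gins2, Cdc6, Cdc45, Slbp, Uhrf1, Dtl, Clspn and Hells) and 22 for mitosis (Mki67, Top2a, Cdk1, Ccnb1, Ccnb2, Ccna2, Ube2c, Cenpf, Cenpe, Birc5, Tpx2, Aurka, Aurkb, Bub1, Plk1, Hmgb2, Kif11, Kif20b, Nusap1, Cdc20, Hmmr and Cks2). They were chosen by symbol, and all 40 matched 1 of the 55357 genes listed, of which 28475 had a molecule in either library. The control library came from SPP1fl/fl mice, whose Spp1 gene (the secreted phosphoprotein osteopontin) is flanked by loxP sites, and the other from SPP1fl/fl-Lyz2-icre mice, in which Cre from the Lyz2 locus acts in macrophages, monocytes and neutrophils. Both genotypes share the floxed allele and the tumour line, no Cre is named for the control, and the labels used here give neither the age nor the number of mice. Live CD45+7-AAD- cells were sorted, and each genotype gave 1 library by the 10x 3-prime method. With a single library per genotype there is no spread between replicates to test against, and the text gives values only.

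The control library kept 8724 cells and 88047097 unique molecular identifiers (UMIs, 1 per counted RNA molecule), with a median of 9379.5 per cell, and the Lyz2-icre library kept 13915 cells and 98256831 UMIs, with a median of 6374. Spp1 stood at 730 CPM in control cells (the gene's share of the UMIs, scaled to a total of 1e6) and 28.3 in Lyz2-icre cells, the direction the labels give. The 40 genes gave 243394 and 274246 UMIs, 0.276% and 0.279% of all UMIs kept. Cells were sorted into types by UMI cutoffs on marker genes, called gates here. The macrophage gate (complement C1qa at 4897 and 5162 CPM, T-cell Cd3e at 0.5 and 0.7) held 5404 control and 9714 Lyz2-icre cells. The other gates held from 13 to 383 cells each, and 1631 and 2420 cells met no gate or more than 1. Intervals are 95% and cover the counting of molecules or cells, not the spread between mice or between cells, so they are too narrow as errors of a genotype. A count of 3-prime tags does not scale with transcript length, so CPM was set side by side between genes without a length correction. Other differences between genes in how fully their tags are counted were not tested.

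A dividing cell copies its DNA in S phase and separates the copies in mitosis. Before replication the Mcm2 to Mcm7 ring is loaded on origins by Cdc6, and Cdc45 and Gins2 join it to form the helicase that unwinds DNA. Pcna, the sliding clamp, holds the polymerase on DNA, Rrm1 and Rrm2 (ribonucleotide reductase) and Tyms (thymidylate synthase) supply nucleotides, and Slbp serves histone mRNA. These genes are switched on mainly by E2F factors when the retinoblastoma protein is phosphorylated. The mitotic genes follow later, through MuvB complexes with B-Myb (Mybl2) and FoxM1, and include the kinase Cdk1 with its cyclins Ccna2, Ccnb1 and Ccnb2, the kinases Plk1, Aurka and Aurkb, and the destruction machinery Cdc20 and Ube2c. In tumours, macrophages can be renewed by monocytes arriving from blood and by division in place, and T cells divide after meeting antigen.

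The promoters of these genes are known for short elements read by those factors, and a few are shown because the lists are defined by the phases in which those factors act. All 40 genes are protein-coding and lie on 16 chromosomes in the GENCODE vM21 annotation of mm10. RefSeq promoter sequence (GRCm38.p6) was matched for 16 of the 18 replication genes and 19 of the 22 mitotic genes, and the 250 bases before each start were searched on both strands. The cell cycle homology element (CHR, searched as TTTGAA or TTCGAA) was found in 8 of the 19 mitotic promoters (42.1%), in 3 of the 16 replication promoters (18.8%) and in 19.6% of the promoters of 27025 genes. The E2F element (searched as TTTGGCGC, TTTCCCGC, TTTGCCGC or TTTCGCGC, whose copies on opposite strands can overlap) was found in 7 of 16 replication promoters (43.8%), in 1 of 19 mitotic promoters (5.26%) and in 2.16% of all. The CCAAT box was in 13 of 16 and 16 of 19 promoters, against 37.5% of all. A match is a description of letters and not a bound site. The last 120 bases before the start of 4 mitotic genes with CHR matches there are given 5′ to 3′ on the gene's strand, with CHR matches in capitals.
Mki67 (chr7:135716380-135716499, minus strand): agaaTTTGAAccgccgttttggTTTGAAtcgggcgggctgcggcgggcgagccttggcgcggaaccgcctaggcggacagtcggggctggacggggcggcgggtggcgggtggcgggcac
Top2a (chr11:99024190-99024309, minus strand): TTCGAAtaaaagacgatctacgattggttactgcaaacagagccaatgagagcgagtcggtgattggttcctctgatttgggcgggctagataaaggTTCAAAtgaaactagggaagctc
Cdk1 (chr10:69352913-69353032, minus strand): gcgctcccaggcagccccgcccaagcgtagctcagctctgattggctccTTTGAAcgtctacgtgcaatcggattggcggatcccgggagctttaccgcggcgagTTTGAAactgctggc
Cdc20 (chr4:118437344-118437463, minus strand): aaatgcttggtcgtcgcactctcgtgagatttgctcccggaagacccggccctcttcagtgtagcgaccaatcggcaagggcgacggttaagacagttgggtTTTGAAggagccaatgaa

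The second match of Top2a reads TTCAAA because it lies on the opposite strand. For replication genes, the same stretch of Mcm6 and Hells is given with E2F matches in capitals, because both hold them close to the start. Mcm6 carries an overlapping pair, 1 on each strand, and a single copy. In this shorter window an E2F match stood in 3 of 16 replication promoters, 0 of 19 mitotic promoters and 1.12% of all.
Mcm6 (chr1:128359706-128359825, minus strand): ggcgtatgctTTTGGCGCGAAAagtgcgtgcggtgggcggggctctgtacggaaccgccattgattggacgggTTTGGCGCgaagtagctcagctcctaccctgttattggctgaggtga
Hells (chr19:38930870-38930989, plus strand): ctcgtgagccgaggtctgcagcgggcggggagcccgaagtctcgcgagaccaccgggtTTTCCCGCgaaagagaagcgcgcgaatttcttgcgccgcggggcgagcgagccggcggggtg

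Across cell types the replication list was lowest in neutrophils, migratory dendritic cells, plasmacytoid dendritic cells and monocytes, and both lists were high in type 1 conventional dendritic cells (cDC1) and CD8 T cells. Other gates reached similar or higher mitotic levels. Control gamma-delta T cells stood at 3282 CPM, Lyz2-icre regulatory T cells at 3508 and a Lyz2-icre collagen-rich gate described below at 3728. The summed replication genes stood at 304 CPM in control migratory dendritic cells, 404 in monocytes, 922 in macrophages, 1336 in NK cells, 1358 in cDC1 and 1616 in CD8 T cells. In the Lyz2-icre library the same gates stood at 360, 478, 880, 1423, 1559 and 1764 CPM, in the same order. The summed mitotic genes were 458 CPM in control migratory dendritic cells, 850 in monocytes, 1784 in macrophages, 1865 in NK cells, 2800 in CD8 T cells and 3452 in cDC1. Their Lyz2-icre values were 538, 597, 1823, 1871, 2805 and 3032 CPM. The intervals of NK cells (1283 to 1391 CPM) and cDC1 (1268 to 1453 CPM) for replication genes overlapped in the control library, so that step has no order beyond counting error. The same holds for that step in the Lyz2-icre library (1352 to 1496 and 1438 to 1688 CPM). For mitotic genes of the Lyz2-icre library it holds for macrophages and NK cells (1813 to 1832 and 1790 to 1955 CPM). It also holds there for migratory dendritic cells and monocytes (477 to 605 and 561 to 634 CPM). CD8 T cells and cDC1 overlapped there too (2713 to 2900 and 2861.5 to 3209 CPM).

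**Figure D1:**
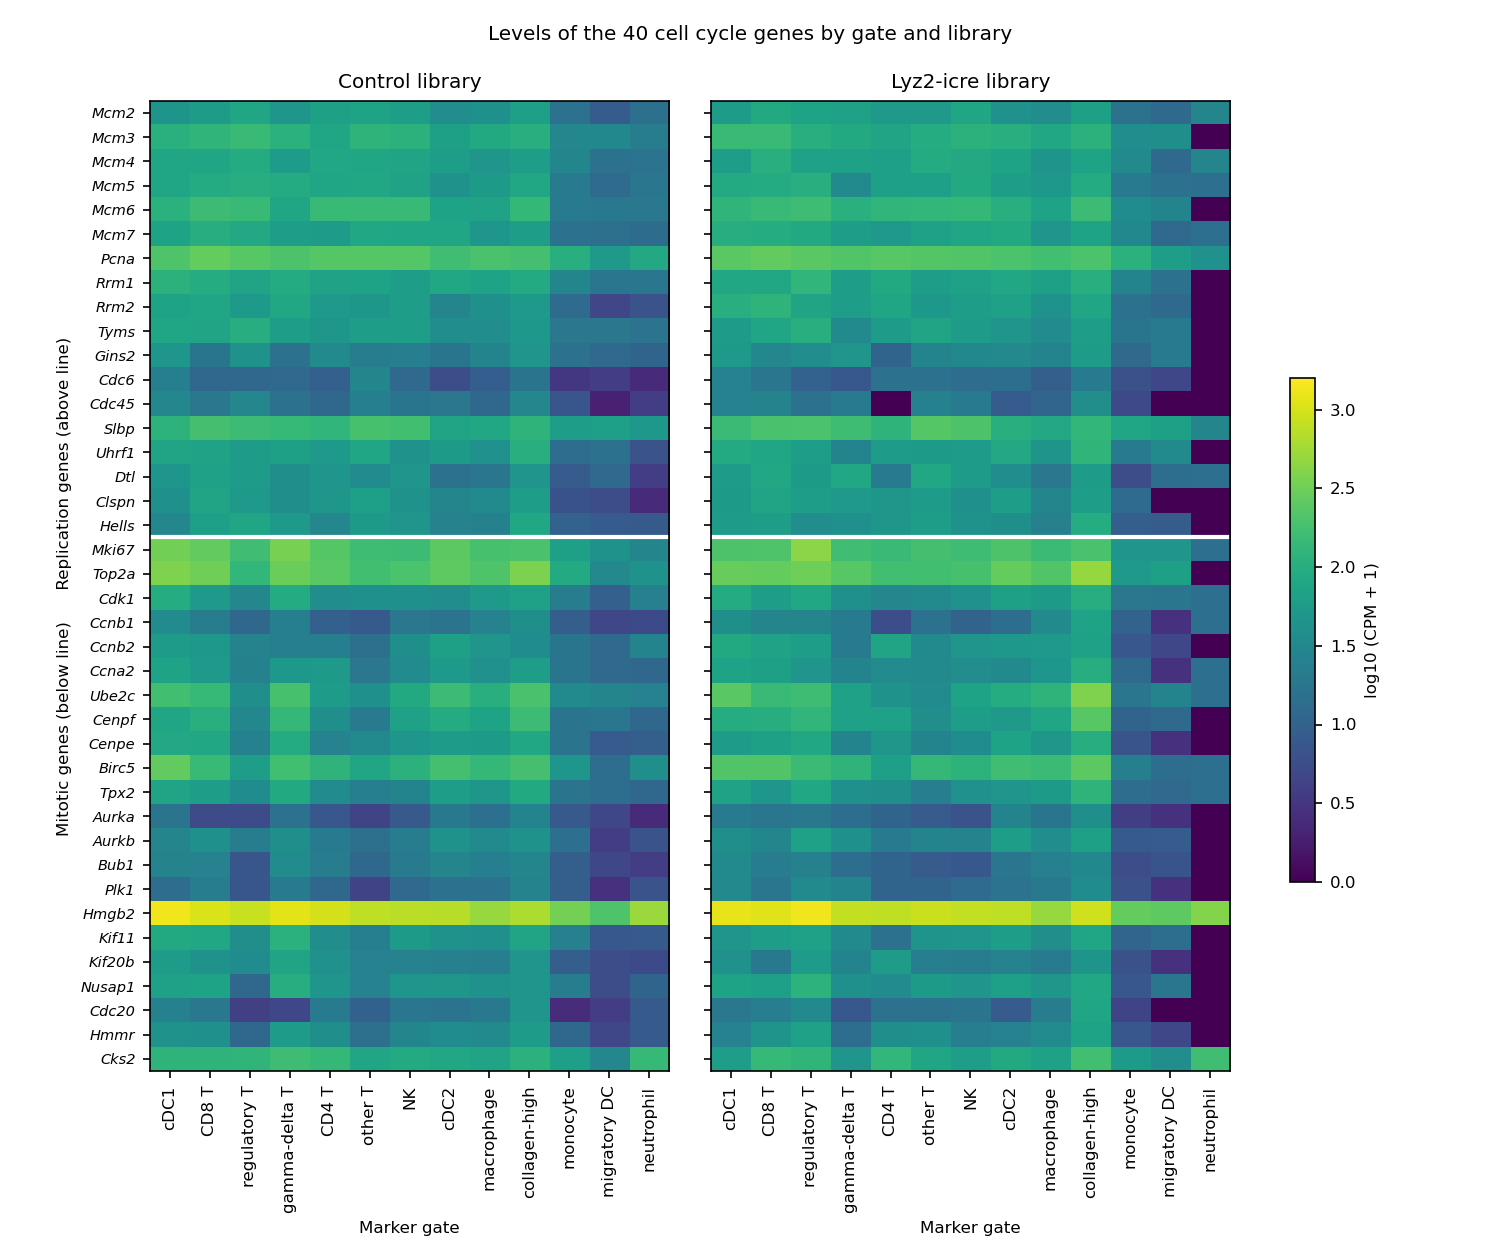
Level of each of the 40 genes (rows, replication genes above the white line) in 13 marker gates (columns) of the control and Lyz2-icre libraries, as log10 of CPM plus 1. Hmgb2 is the brightest row in each gate drawn (507 and 501 CPM in macrophages), and the monocyte, migratory dendritic and neutrophil columns are the darkest, the last resting on only 48 cells in the Lyz2-icre library.

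Hmgb2, a chromatin protein that bends DNA, led the mitotic list in every gate. It stood at 1335 and 1193 CPM in cDC1 (control and Lyz2-icre), 1045 and 1109 in CD8 T cells, 731 and 810 in NK cells, 727 and 789 in type 2 conventional dendritic cells (cDC2), 507 and 501 in macrophages and 339 and 278 in monocytes. In the control library Top2a, the topoisomerase that untangles chromosomes, came second in many gates, among them cDC1 (377 and 284 CPM), CD8 T cells (321 and 275), cDC2 (254 and 278), NK cells (194 and 185) and monocytes (88.9 and 53.1). In control gamma-delta T cells the second was instead Mki67, the proliferation antigen Ki-67 (353 CPM, with 165 in the Lyz2-icre library). Pcna led the replication list in most gates, at 275 and 270 CPM in CD8 T cells, 229 and 213 in NK cells, 210 and 241 in cDC1, 164 and 197 in cDC2 and 104 and 111 in monocytes. Slbp followed in lymphocytes, at 180 and 192 CPM in CD8 T cells and 168 and 199 in NK cells. In migratory dendritic cells Slbp (62.9 and 64.4 CPM) stood above Pcna (51.6 and 60.7 CPM).

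Mature neutrophils do not divide, so this gate was read as a comparison for the members. Whether all its cells were mature was not tested. Control neutrophils (167 cells) still held Hmgb2 at 521 CPM, as much as macrophages, and Cks2, a small subunit of cyclin-dependent kinases, at 139 CPM against 73.2 in control macrophages. These 2 genes made up 84.7% of the mitotic UMIs of control neutrophils, against 34.7% in macrophages. Top2a was at 42.0 CPM there, Pcna at 84.1 and Slbp at 50.4. The gate's own markers were high (S100a8 at 25679 CPM) and macrophage C1qa was at 224 CPM, and the part of macrophage RNA in the member levels was not tested.

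Within the macrophage gate the pooled levels of the 2 libraries lay close together. The replication list stood at 922 CPM in control cells (914 to 930) and 880 in Lyz2-icre cells (873 to 887), a ratio of 0.955 (0.944 to 0.966) or a log2 ratio of -0.07 with 5 CPM added to each value. The mitotic list stood at 1784 CPM (1773 to 1795) and 1823 CPM (1813 to 1832), a ratio of 1.02 (1.01 to 1.03) and a log2 ratio of 0.03. Of 39 members that reached 10 CPM and 30 UMIs in the higher library, 0 were past 1.5-fold in either direction, where 2.09% of 7902 genes were (0.582% higher and 1.51% lower). The loader Cdc6 was the 1 member below that minimum (8.02 and 8.25 CPM). Of the members read, 5 of 17 replication genes and 16 of 22 mitotic genes were higher in the Lyz2-icre library, with median log2 ratios of -0.04 and 0.13, beside a median of -0.02 over all genes read.

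Among replication genes of macrophages, Pcna stood at 191 CPM in the control and 172 in the Lyz2-icre library (ratio 0.900, 0.877 to 0.924). The helicase subunit Mcm3 was at 87.6 and 78.6 CPM (ratio 0.898, 0.864 to 0.932), Slbp at 82.9 and 84.7, and the reductase subunit Rrm1 at 70.2 and 65.3. The lowest log2 ratios were those of Clspn, the claspin adaptor of the replication checkpoint (-0.17), Pcna (-0.15) and Mcm3 (-0.15). The highest were Uhrf1, which keeps DNA methylation through replication (0.10), the ubiquitin ligase adaptor Dtl (0.07) and Rrm2 (0.05). The 17 members read thus lay between -0.17 and 0.10.

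Mitotic genes of macrophages spread more widely. Hmgb2 stood at 507 CPM in the control and 501 in the Lyz2-icre library, Top2a at 209 and 214, Mki67 at 187 and 150, and the survivin gene Birc5 at 133 and 152. The lowest log2 ratios were Mki67 (-0.31, ratio 0.799, 0.778 to 0.820), the kinetochore motor Cenpe (-0.13) and Cks2 (-0.11). The highest were cyclin B1 (Ccnb1, 25.4 and 33.1 CPM, log2 ratio 0.33), the kinase Plk1 (14.5 and 18.7 CPM, 0.28) and the ubiquitin carrier Ube2c (101 and 118 CPM, 0.22). Mki67, on chromosome 7 (135689784 to 135716361, minus strand), and Ccnb1, on chromosome 13 (100778650 to 100786570, minus strand), therefore differed in opposite directions in the pooled cells. Both differences were under 1.5-fold.

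The UMIs of the members were concentrated in part of the macrophages. After each cell was thinned at random to 2000 UMIs, 43.0% of 5095 control macrophages had no replication UMI and 40.04% no mitotic UMI, while single cells reached 20 and 43. The 10% of cells with the most UMIs of a list held 47.8% of the replication UMIs and 58.8% of the mitotic UMIs (Lyz2-icre 46.9% and 54.6%). A cell was called cycling when it had at least 4 UMIs of either list, which took in 1360 of 5095 control and 2560 of 8783 Lyz2-icre macrophages. Of the control cells, 378 passed on replication genes only, 597 on mitotic genes only and 385 on both. Near the cutoff, 198 control cells were called with exactly 4 UMIs of their higher list and 309 stopped at 3.

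To describe single members, each was set aside in turn and the cells called with the other 39. Nusap1, a spindle microtubule protein, was then 62.8-fold higher in cycling than in other control macrophages (36.9 to 116) and 43.6-fold in the Lyz2-icre library. Ccnb1 was 42.6-fold and 33.7-fold higher, Hmmr, a spindle-associated receptor, 43.9-fold and 24.8-fold, and Rrm2 37.0-fold and 18.9-fold. The least concentrated in the control library were Slbp (2.62-fold and 2.60-fold), Mcm4 (2.91-fold and 3.22-fold) and Pcna (3.21-fold and 2.90-fold). Hmgb2, with 198 CPM in the other control macrophages, was 5.73-fold and 5.83-fold higher. Pcna and Hmgb2, the members with the highest levels of their lists, were thus less concentrated in cycling cells than most.

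The cells past only 1 cutoff set the members apart by phase. Hmmr was at 1.32 CPM in control cells past the replication cutoff only and 160 CPM in those past the mitotic cutoff only (log2 difference 4.71 with 5 CPM added), and Ube2c at 17.1 and 432 CPM (4.31). Cenpf, a kinetochore protein, was at 10.5 and 321 CPM (4.39). On the other side Mcm2 was at 184 and 21.6 CPM (-2.83), Hells, a chromatin remodeller, at 94.1 and 12.5 CPM (-2.50) and Mcm6 at 222 and 42.6 CPM (-2.26). Rrm1 (119 and 139 CPM, 0.21), Rrm2 (46.9 and 71.2 CPM, 0.55) and Tyms (45.8 and 49.9 CPM, 0.11) were slightly higher in cells past the mitotic cutoff, although the list counts them with replication. In control cells past both cutoffs they stood at 308, 239 and 160 CPM, and 13 of the 18 replication genes, these included, were highest there (7 of 18 in the Lyz2-icre library). In the Lyz2-icre library their differences were 0.25, -0.11 and 0.08, and Mcm2 (-1.74), Hells (-1.85) and Hmmr (4.20) kept their sides.

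**Figure D2:**
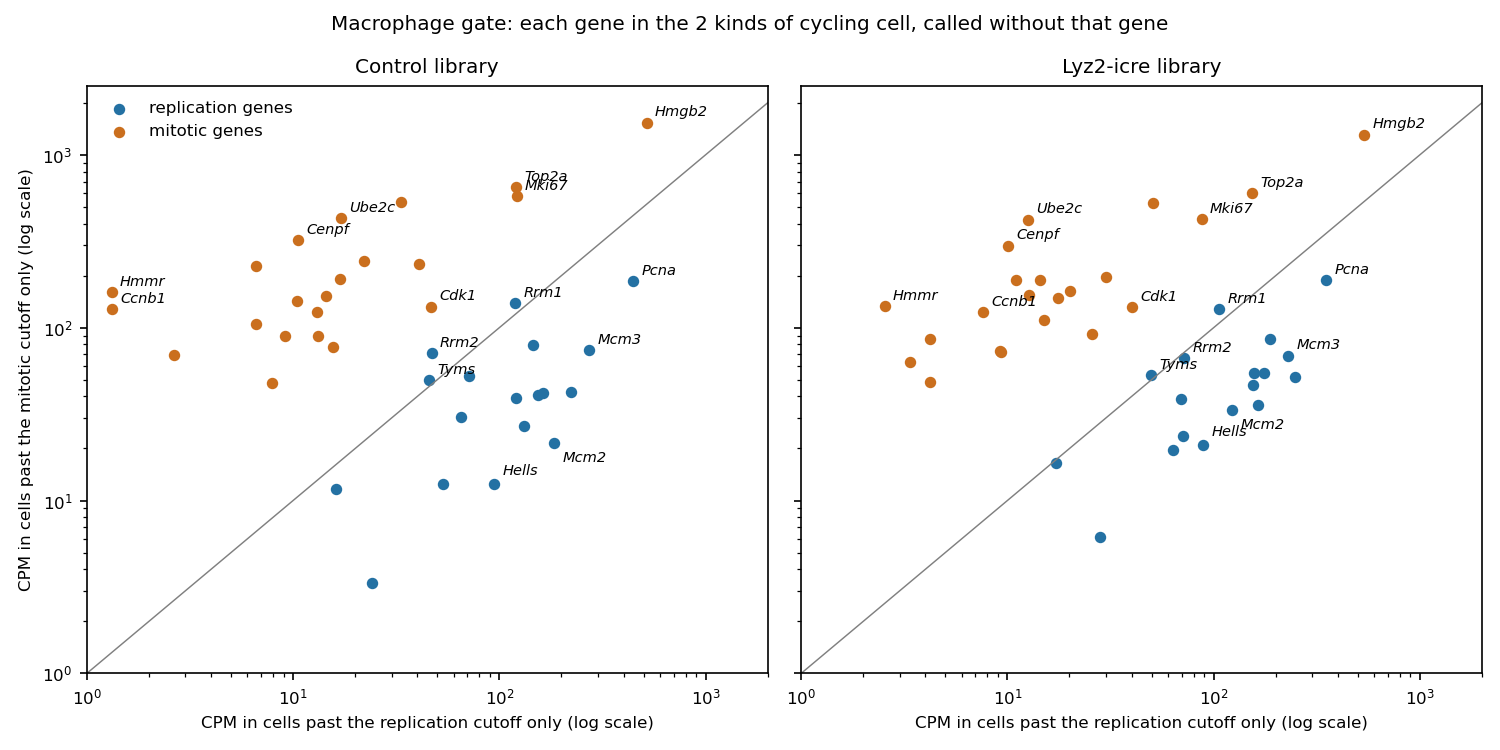
CPM of each gene in macrophage-gate cells past the mitotic cutoff only (vertical, log scale) against cells past the replication cutoff only (horizontal, log scale), for each library, with cells called without the gene plotted and the grey line marking equal levels. All mitotic genes lie above the line and most replication genes below it, while Rrm1, Rrm2, Tyms and Cdc45 sit on or near it.

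Over single macrophages the counts of 2 members of a list were only loosely correlated. The median Pearson r over pairs of mitotic genes was 0.222 in the control library (5095 cells) and 0.196 in the Lyz2-icre library (8783 cells), that of replication pairs 0.118 and 0.116, and that of pairs across the lists 0.0371 and 0.0391. The best control pair was Mki67 with Top2a (0.510). Outside the list, of 8989 genes ranked, the replication sum went best with Pclaf, the Pcna-binding factor (r 0.442 and 0.435), the tubulin regulator Stmn1 (0.404 and 0.400), Ptma, Dut, Atad2, Lig1, Tubb5, Dek, Tuba1b and Ranbp1. The mitotic sum went best with Stmn1 (0.620 and 0.591), the histone variant H2az1 (0.576 and 0.602), Tubb5 (0.598 and 0.560), Ptma, Tuba1b, Pclaf, the spindle midzone gene Prc1 (0.556 and 0.472), Cks1b, Cdca8 and H2ax. These counts were thinned to 2000 UMIs per cell. All cells of a library share its free RNA, and r is given as a description.

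Other genes of the cell cycle, in 6 lists, also differed little between the libraries in macrophages. Of 72 genes read in the lists, only Btg2, an antiproliferative gene, was past 1.5-fold (749 and 488 CPM, ratio 0.651, 0.642 to 0.661). Beside this, 2.09% of all 7902 genes read in the gate were past it in either direction, so few genes of any kind were. Btg2 was also lower in the Lyz2-icre library in CD8 T cells (555 and 366 CPM) and NK cells (681 and 518 CPM). The spindle list (20 of 20 genes read, median log2 ratio 0.05) ran from the kinetochore scaffold Knl1 (34.8 and 24.0 CPM, -0.46) to the mitotic entry gene Cdca3 (56.4 and 68.0 CPM, 0.25). In cycling against other macrophages, 14.0% of 8198 genes were past 1.5-fold higher in the control and 12.3% of 8101 in the Lyz2-icre library. There, 19 of 20 spindle genes were past it in each library, 14 of 14 licensing and replisome genes, 10 of 10 chromatin and tubulin genes, 8 of 12 E2F, RB and MuvB genes, 5 of 9 G1 cyclin and kinase genes and 3 of 7 inhibitors and brakes. Among the regulators, Foxm1 stood at 37.5 CPM in cycling and 0.937 in other control macrophages, and cyclin E1 (Ccne1) stood at 30.5 and 2.54 CPM. D-type cyclins, which respond to growth factors, differed less, as with Ccnd1 (317 and 261 CPM). Among the brakes, Cdkn1a (p21) stood at 636 and 649 CPM in control cells, and 648 and 660 in Lyz2-icre cells, while the INK4 gene Cdkn2c was 6.05-fold and 6.47-fold higher in cycling cells.

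Cycling macrophages held similar levels of lineage genes to the others and less of several state genes. C1qa was at 5035 and 5082 CPM (control, cycling and other) and Csf1r, the colony-stimulating factor receptor, at 575 and 597. Arginase 1 (Arg1) was at 329 and 697 CPM in the control (ratio 0.471, 0.439 to 0.506) and 658 and 1309.6 in the Lyz2-icre library (0.502, 0.484 to 0.521). The lipid binder Fabp5 was at 257 and 489 CPM in the control, and its ratios were 0.526 and 0.509. Lower levels in cycling cells of both libraries were also read for the lipoprotein Apoe (ratios 0.709 and 0.719), the cytokine Il1b (0.605 and 0.739) and the monocyte gene Ly6c2 (0.335 and 0.508). Past 1.5-fold lower in cycling cells were 3.65% of genes in the control and 2.57% in the Lyz2-icre library. Spp1 itself was at 438 CPM in cycling and 639 in other control macrophages (0.685, 0.643 to 0.731). Cycling cells were deeper before thinning (median 13476 and 9775 UMIs in the control), and the part of depth in these ratios was not tested.

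At 2000 UMIs per cell the share of cycling cells differed widely by cell type. In cDC1 it was 58.5% of 41 control cells (42.1 to 73.7%) and 55.3% of 38 Lyz2-icre cells. In regulatory T cells it was 38.4% of 99 control cells (28.8 to 48.7%) and 22 of 55 Lyz2-icre cells (27.0 to 54.1%), in CD8 T cells 34.0% (86 of 253, 28.2 to 40.2%) and 43.1% (113 of 262, 37.1 to 49.4%), and in cDC2 30.2% and 36.0%. Regulatory T cells thus stood above CD8 T cells in the control library and below them in the Lyz2-icre library, with intervals that overlap in both. NK cells had 28.3% and 27.2%, macrophages 26.7% (1360 of 5095, 25.5 to 27.9%) and 29.1% (2560 of 8783, 28.2 to 30.1%), and CD4 T cells 23.4% and 24.4%. Monocytes had 4.27% (7 of 164) and 4.74% (17 of 359), and migratory dendritic cells 3.88% and 5.15%. The intervals of monocytes (1.73 to 8.60%) and macrophages did not overlap in the control library. Macrophages made up 65.0% of all cycling cells of the control library and 74.3% of those of the Lyz2-icre library, close to their 62.8% and 72.0% of all cells at that depth.

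In the neutrophil gate, 18.5% of 135 control cells were called, of which 24 of 25 passed on mitotic genes alone. Without Hmgb2, Cks2, Slbp and Pcna, 1 of 135 control neutrophils was called (0.741%, 0.0188 to 4.06%), and the macrophage shares became 21.8% and 24.2%. The uncalled control neutrophils were shallower (median 3403.5 UMIs) than the uncalled control macrophages (median 9775). The CD8 T shares became 24.1% and 35.1% and those of regulatory T cells 20.2% and 36.4%. Of 13 Lyz2-icre plasmacytoid dendritic cells 0 were called, which allows a share of up to 23.1%.

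**Figure D3:**
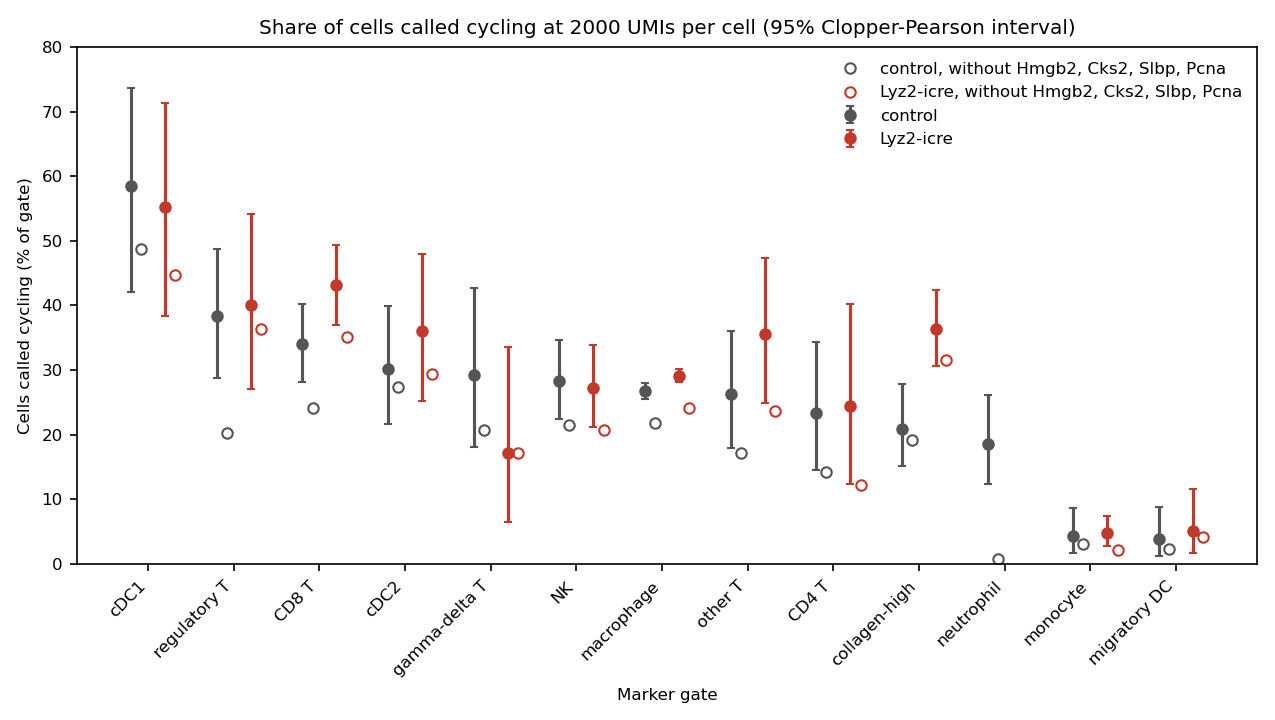
Share of cells called cycling (percent of the gate's cells at 2000 UMIs) by gate, filled points with 95% Clopper-Pearson intervals for the control and Lyz2-icre libraries, and open points for the share without Hmgb2, Cks2, Slbp and Pcna, with gates of under 20 cells left out. Monocytes and migratory dendritic cells lie lowest in both libraries, and the neutrophil point of the control drops from 18.5% to 0.741% without the 4 genes.

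Between the libraries the share ratio of macrophages was 1.09 (1.02 to 1.17), that of CD8 T cells 1.27 (0.950 to 1.70), of NK cells 0.964 (0.659 to 1.41), of cDC2 1.19 (0.687 to 2.06), of CD4 T cells 1.04 (0.430 to 2.38) and of monocytes 1.11 (0.437 to 3.16). These intervals count cells of 1 library per genotype and are no test of the genotypes. Without thinning, the macrophage ratio turned to 0.778 and the CD8 T ratio became 0.770. The control library was the deeper one, and the part of depth in these shifts was not tested. In CD8 T cells the replication list stood at 1616 and 1764 CPM (ratio 1.09, 1.03 to 1.15) and the mitotic list at 2800 and 2805 CPM. Past 1.5-fold there were 3 of 17 replication genes, all higher, and 1 of 21 mitotic genes, lower, beside 2.52% higher and 9.77% lower of 6676 genes. NK cells had 1 of 20 mitotic genes higher and 3 lower and 0 of 16 replication genes past it, beside 1.93% higher and 9.53% lower of 6572 genes. In cDC2 4 of 13 replication genes were past 1.5-fold higher, beside 3.87% of genes, with the list at 893 and 1222 CPM, and of 16 mitotic genes 1 was higher and 3 were lower, beside 10.2% of genes lower.

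Larger differences were read in gates with few cells. The mitotic list of regulatory T cells was at 1685 CPM in 105 control cells and 3508 CPM in 74 Lyz2-icre cells (ratio 2.08, 1.91 to 2.26), with 7 of 8 mitotic genes read past 1.5-fold higher, beside 3.74% of genes higher and 11.7% lower. Its leading genes were Hmgb2 (846 and 1344 CPM) and Mki67 (166 and 434 CPM), while the replication list differed little (1577 and 1599 CPM), led by Pcna (235 and 240 CPM) and Slbp (157 and 197 CPM). Gamma-delta T cells went the other way, with the mitotic list at 3282 CPM in 60 control cells and 1881 CPM in 42 Lyz2-icre cells, and 4 of 7 mitotic genes past 1.5-fold lower, beside 17.4% of genes lower and 5.76% higher. The monocyte mitotic list was at 850 and 597 CPM (ratio 0.701, 0.644 to 0.764), with 4 of 8 genes past 1.5-fold lower, beside 4.27% of genes, while 3 of 9 replication genes were past it higher, beside 6.97%. Its UMIs came from few cells, since the 7 cycling control monocytes held 43.3% of the mitotic UMIs at 2000 UMIs per cell. In regulatory T cells, gamma-delta T cells and monocytes only 8, 7 and 8 of the 22 mitotic genes were read. In every gate a gene was read when its higher library reached 10 CPM and 30 UMIs. A gene could thus enter through the library where it was high, and the counts past 1.5-fold give no support for a direction. The list sums use all genes of the list.

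A gate of 174 control and 279 Lyz2-icre cells rich in collagen transcripts (Col1a2 at 502 and 515 CPM) held little of the leukocyte gene Ptprc, which encodes CD45 (20.4 and 21.2 CPM, against 460 and 436 in macrophages), and is not named further. Its cycling share was 20.9% (36 of 172) and 36.4% (99 of 272), a ratio of 1.74 (1.18 to 2.62). Its leading members were Hmgb2 (645 and 941 CPM), Top2a (370 and 492 CPM), Pcna (182 and 197 CPM) and Mcm6 (133 and 155 CPM). Of its 22 mitotic genes, 8 were past 1.5-fold higher, beside 3.47% of genes higher and 6.59% lower, with the list at 2600 and 3728 CPM.

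Both libraries held cells of female and of male mice, and the 40 genes differed in opposite directions between them. Female cells were taken as those with Xist and no Y-linked UMI, and male cells as the reverse (4 Y-linked genes). In the macrophage gate all 40 members were lower in the Lyz2-icre library among female cells and all 40 were higher among male cells. Of 7765 genes read in both sexes, 33.7% had that pattern of a ratio under 1 in female and over 1 in male cells, and 39 of the 39 members read did. The UMIs of all members come from the same cells, so they do not count as 40 separate observations. The difference between the sexes was not tested, since each sex has 1 library per genotype and an unknown number of mice.

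In female macrophages (3254 control and 5575 Lyz2-icre cells) the replication list stood at 1020 and 808 CPM (ratio 0.792, 0.780 to 0.804) and the mitotic list at 1982 and 1591 CPM (0.803, 0.794 to 0.811). In male macrophages (1297 and 1822 cells) the replication list stood at 797 and 1052 CPM (1.32, 1.29 to 1.35) and the mitotic list at 1597 and 2430 CPM (1.52, 1.497 to 1.55). Both sums were thus highest in male Lyz2-icre cells, then in female control cells. Male Lyz2-icre cells were the highest group for 14 of 18 replication and 21 of 22 mitotic genes, while the lowest was the male control for 24 members and the female Lyz2-icre for 16. Past 1.5-fold were 23 members in male cells, 6 replication and 17 mitotic, all higher, beside 2.28% of genes higher and 2.48% lower. In female cells 1 member, Mki67, was past it, lower, beside 2.44% of genes lower and 1.71% higher. The median over all genes read was -0.05 in female and 0.04 in male cells, against -0.28 and 0.39 for replication genes and -0.20 and 0.62 for mitotic genes.

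Single members differed in the size of these steps. Mki67 stood at 207 CPM in female control, 131 in female Lyz2-icre, 171 in male control and 196 in male Lyz2-icre macrophages, so that its highest level was in the female control. Ccnb1 stood at 28.5, 28.3, 22.4 and 48.1 CPM in the same order, so the female cells of the libraries were level and the male cells were not (male ratio 2.15, 1.89 to 2.46, and female ratio 0.991, 0.908 to 1.08). Top2a stood at 238, 181, 186 and 295 CPM and Hmgb2 at 553, 439, 454 and 642 CPM. Pcna differed least among male cells (204, 167, 171 and 186 CPM, male log2 ratio 0.11), and Mcm5, a helicase subunit, differed most among female replication genes (63.0, 43.9, 42.2 and 62.2 CPM, female log2 ratio -0.48). Among female cells Ccnb1 (-0.01), Plk1 (-0.02), Cdc20 (-0.10) and Aurka (-0.10) were nearest to 0.

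**Figure D4:**
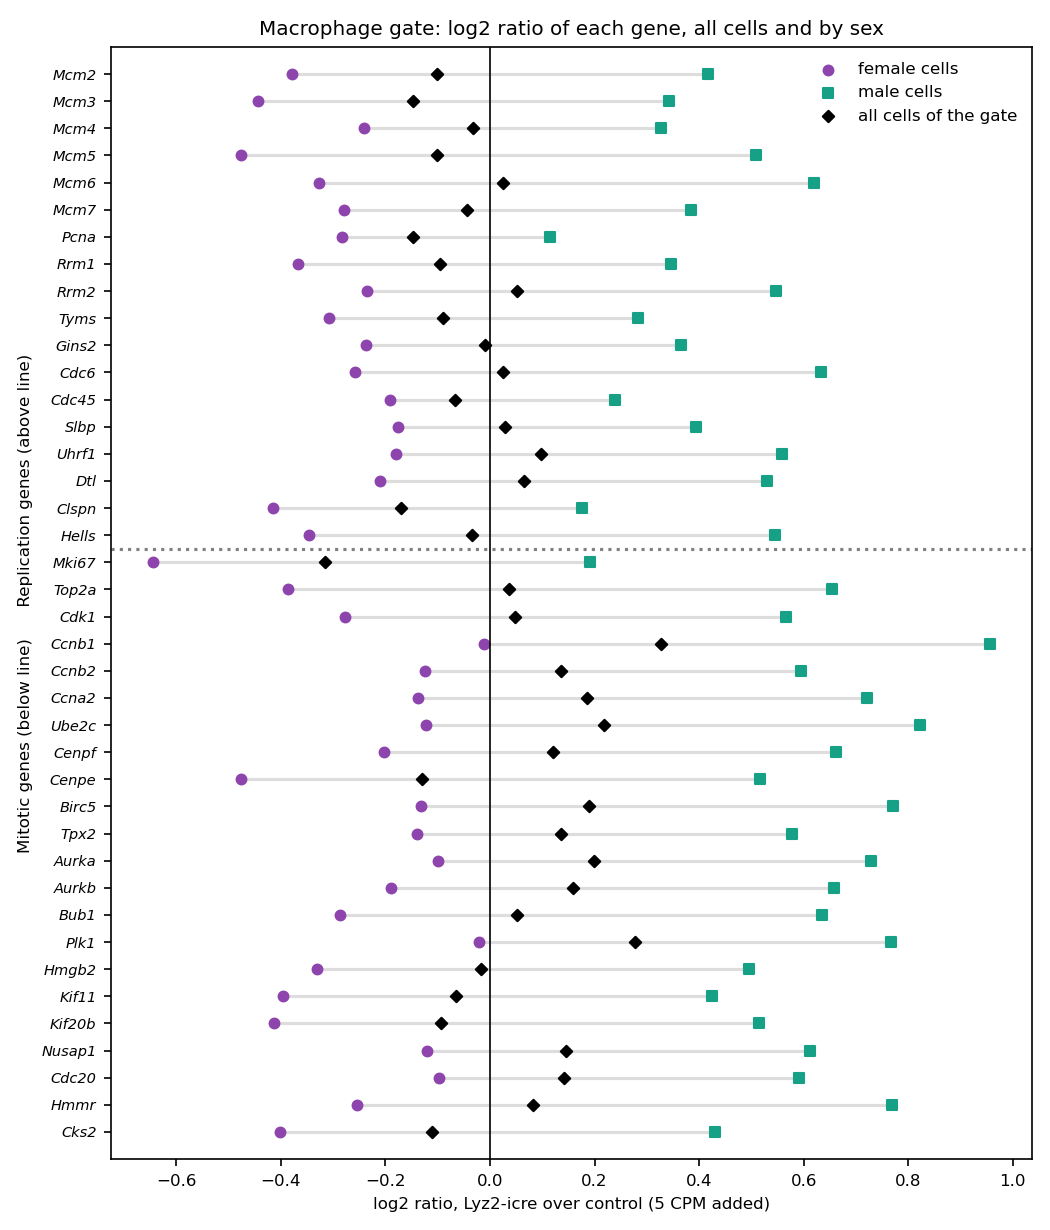
The log2 ratio of Lyz2-icre over control (horizontal, 5 CPM added) of each of the 40 genes in the macrophage gate, as circles for female cells, squares for male cells and diamonds for all cells of the gate. Every circle lies left of 0 and every square right of it, from -0.64 for Mki67 in female cells to 0.96 for Ccnb1 in male cells, and the diamonds lie between.

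The share of cycling macrophages differed in the same directions. It was 29.4% in female control cells (899 of 3063, 27.7 to 31.0%) and 25.7% in female Lyz2-icre cells (1314 of 5104, 24.5 to 27.0%). In male cells it was 22.5% in the control (287 of 1274, 20.3 to 24.9%) and 37.3% in the Lyz2-icre library (655 of 1756, 35.0 to 39.6%). No 2 of the intervals within a sex overlapped. Without Hmgb2, Cks2, Slbp and Pcna the shares were 24.4% and 21.2% among female and 18.3% and 31.9% among male macrophages. Macrophages with UMIs of both kinds had 28.6% and 37.7%, and those with neither, which were shallower (median 7558 and 5078 UMIs), 17.0% and 27.5%. Depth was lower in the Lyz2-icre library in both sexes (medians of 9710 and 6939 UMIs in female and 11208 and 7884 in male macrophages), and its part in these values was not tested.

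The targeted genes were also read by sex. Spp1 was at 559 CPM in female and 766 CPM in male control macrophages, and at 2.79 and 1.31 CPM in the Lyz2-icre library. Lyz2, whose locus carries Cre, was at 11613 and 2882 CPM in female and 11825 and 6084.5 CPM in male macrophages (control and Lyz2-icre). Spp1 was thus near 0 in the Lyz2-icre macrophages of both sexes, while its female macrophages held less Lyz2 than its male ones. The part of Lyz2 dose, or of single mice, in the cell cycle values was not tested.

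Lymphocytes lie outside the myeloid lineage in which Lyz2 is mainly expressed. Among CD8 T cells 34.9% of 152 female control and 33.3% of 141 female Lyz2-icre cells were cycling, and 35.4% of 65 male control and 63.8% of 58 male Lyz2-icre cells (50.1 to 76.0%). Their replication list stood at 1671 and 1339 CPM in female (ratio 0.801, 0.736 to 0.872) and 1737 and 2304 CPM in male cells (1.33, 1.20 to 1.47), while the male ratio of their mitotic list was 1.06 with an interval that includes 1 (0.984 to 1.14). In NK cells the mitotic list stood at 2086 and 1773 CPM in female and 984 and 2051 CPM in male cells (0.850, and 2.08 with 1.78 to 2.44), the latter from 37 and 41 cells. In NK cells the cycling shares were 29.3% and 25.2% among female and 27.8% and 34.2% among male cells, with intervals that overlap widely. Other T-cell gates held few male cells and differed among themselves. In regulatory T cells (13 and 9 male cells) both lists were higher in the Lyz2-icre library in both sexes, with log2 ratios of 0.93 in female and 1.96 in male cells for the mitotic list and 0.13 and 0.20 for the replication list. In T cells of no other gate (12 and 13 male cells) the same held, with 0.34 and 2.11 for the mitotic list and 0.04 and 0.73 for the replication list. In CD4 T cells (17 and 7 male cells) the mitotic list had -0.59 and 0.29, and in gamma-delta T cells (14 and 3 male cells) -1.14 and 2.34. The cDC2 gate had a replication ratio of 1.26 in female and 0.851 (0.619 to 1.17) in male cells, the latter from 8 and 14 cells. The opposite directions of the macrophage gate were thus read in some gates and not in others.

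**Figure D5:**
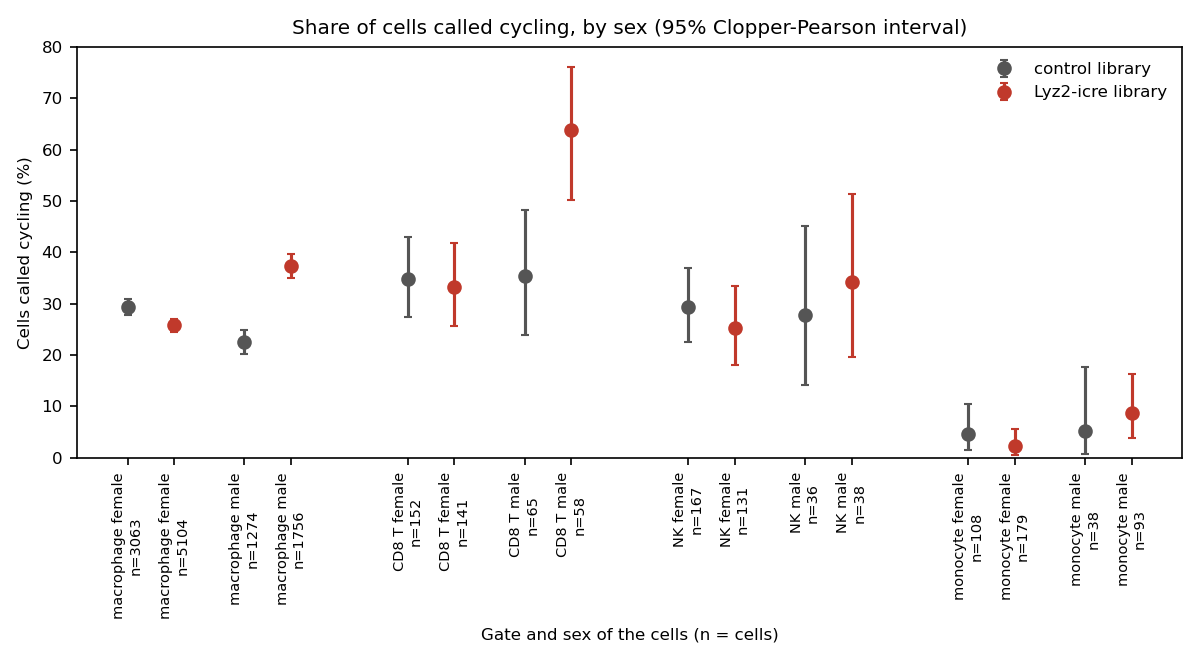
Share of cells called cycling (percent, at 2000 UMIs per cell) in macrophage, CD8 T, NK and monocyte gates by sex, with grey points for the control and red points for the Lyz2-icre library, 95% Clopper-Pearson intervals, and the number of cells under each. Among male cells the Lyz2-icre point is the higher one in each gate, clear of the control interval in macrophages (37.3% against 22.5%) and in CD8 T cells (63.8% against 35.4%).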

How the data were processed

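The 2 deposited count matrices, 1 per genotype, were read. Per the file headers the authors made these UMI counts per gene and cell barcode with Cell Ranger 8.0.1, and the submitters' processing notes also list bcl2fastq and mm10. The annotation release used for counting is not given in the sources used here, and gene positions are those of GENCODE vM21. The labels put each library in its genotype.

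Barcodes under 300 genes, under 500 UMIs or over 15% mitochondrial UMIs were dropped, which left 8724 of 9154 and 13915 of 13944. Scrublet (in scanpy 1.11.5, expected rate 6%) called 0 doublets in both, so it did not work as a filter and none were removed. The libraries shared 43 cell barcodes. Macrophages were gated at 40 or more C1q UMIs per 10000 and the other classes at under 20, with minimums on their own marker UMIs, and a cell in more than 1 gate was left unassigned. Counts were summed per gate and scaled to CPM, log2 ratios had 5 CPM added, and shares of cycling cells were read after thinning each cell to 2000 UMIs, so cells with fewer were left out there (309 control and 931 Lyz2-icre macrophages). Intervals are 95%, exact Poisson for counts, Clopper-Pearson for shares and conditional binomial for ratios, and cover counting error only. The limit for a count of 0 is 3 counts. Promoters came from RefSeq (GRCm38.p6). Only the ratio and thinning steps were tested on simulated counts, which were drawn independently and not clustered in cells.

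In the macrophage gate the 4 members with the highest control CPM and the 3 highest and 3 lowest log2 ratios of each list are named, in other gates the 2 highest members of each list, and the 10 other genes that correlate best with each sum. Members named beyond that were chosen after their values were seen. The members and lists were chosen with earlier results of these data known. Alternatives covered the cell filter, gates, Leiden clusters (resolution 1), sex, doublet scores, depth, averaging, scaling, pseudocount, cutoffs and lists. Python 3.11.15, numpy 2.4.6, scipy 1.17.1, pandas 2.3.3 and matplotlib 3.10.9 were used.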

Additional observations from a re-analysis of the deposited data

Results flagged for a closer look

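Counting intervals by sex were computed only for the macrophage, monocyte, CD8 T, NK, collagen-high and cDC2 gates. In 5 of these a list summed lower in the Lyz2-icre library among female cells and higher among male cells, with both intervals clear of 1. Other gates were not read for this, so the count does not limit the pattern to 5 gates. The difference between the sexes was not tested, because each sex has 1 library per genotype. In the macrophage gate the Lyz2-icre over control ratio of the replication list was 0.792 in female and 1.32 in male cells, and that of the mitotic list 0.803 and 1.52. In monocytes the mitotic list had ratios of 0.416 and 1.32. Few monocytes were called cycling, 5 of 108 control and 4 of 179 Lyz2-icre cells among female cells. Among male monocytes 2 of 38 and 8 of 93 were called, and the intervals of these shares overlapped within each sex. The replication list of CD8 T cells had 0.801 and 1.33. NK cells had 0.885 and 1.58 for the replication list and 0.850 and 2.08 for the mitotic list. The collagen-high gate had 0.763 and 6.94 for the replication list and 0.491 and 9.97 for the mitotic list, from 18 and 25 female and 5 and 9 male cells. Most cells of that gate, 150 of 174 control and 245 of 279 Lyz2-icre cells, had neither Xist nor Y-linked UMIs. Its ratios by sex thus rest on few cells, and whether those genes give a mouse's sex in this gate was not tested.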

How the results depend on the processing

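In the macrophage gate the log2 ratio of the replication list was -0.07, and it was -0.087 with stricter gates, -0.025 as a mean of per-cell CPM, -0.015 with median-of-ratios scaling and -0.045 without its member with the most UMIs. In female cells it was -0.33, and in male cells it turned to 0.40. The log2 ratio of the mitotic list was 0.03, and it was 0.0047 with gates on thinned cells, 0.00075 by Leiden cluster majority, 0.013 without the highest Scrublet scores, 0.068 as a mean of per-cell CPM, 0.082 with median-of-ratios scaling, 0.049 without its member with the most UMIs and 0.059 without Hmgb2, Cks2, Slbp and Pcna. In female cells it turned to -0.32, and in male cells it was 0.60. The macrophage share ratio of 1.09 turned to 0.877 in female cells and to 0.778 without thinning, and was 1.66 in male cells. The CD8 T share ratio of 1.27 was 1.80 in male cells and 0.770 without thinning. Members past 1.5-fold numbered 0, but 1 in female and 23 in male cells. The cause of these shifts was not tested. Under their alternatives the share ratios of NK cells (0.751 to 1.23), CD4 T cells (0.678 to 1.57), monocytes (0.437 to 1.95) and cDC2 (0.756 to 1.23) stayed within the counting intervals of their reported values. Of the 40 members, 22 had the opposite sign to their pooled value in female cells and the other 18 had it in male cells, and 79 of these 80 values lay outside the pooled counting interval. Under the 11 other settings 36 of 440 member values lay outside it, and 13 members changed sign under at least 1. No paired analysis was possible because each genotype has 1 library.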
